A study of Mus musculus with 5 samples.

Results

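The genes described here are 9 enzymes of fatty acid oxidation: Cpt1a, Cpt2, Acadvl, Acadl, Acadm, Acads, Hadha, Hadhb and Ehhadh. Every probe set whose only gene symbol in the array's annotation was one of these 9 was taken, which gave 9 of 18194 named genes and 15 of the 45101 probe sets in the value table. RNA came from GFP-positive cells sorted by flow cytometry from trypsin-dissociated lungs at postnatal day 2 of mice carrying SPC-GFP, the offspring of matings between the transgenic line and outbred ICR mice. Each of the 5 biological replicates had 1 array, and all 5 form 1 group, so no genotype, treatment or age was compared, and the labels do not say whether a replicate was 1 pup or a pool. The transgene name points to surfactant protein C, the marker of alveolar type 2 cells, which the sample titles name too, whereas the design text calls the sorted cells ciliated.

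Fatty acids enter mitochondria as carnitine esters, made by the outer-membrane enzyme encoded by Cpt1a and turned back into acyl-CoA by the product of Cpt2. Acyl-CoA dehydrogenases then start each round of beta-oxidation, the mitochondrial trifunctional protein (subunits Hadha and Hadhb) completes it for long chains, and Ehhadh serves the parallel pathway in peroxisomes. Alveolar type 2 cells both build fatty acids into surfactant lipid and burn them, and in mice the long-chain enzyme Acadl has been tied to surfactant function.

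Values are deposited signals on a scale taken as log2, and levels of different probe sets were not ranked, since probes differ in how well they bind. Background on each array was the 95th percentile of 87 probe sets of 78 odour, taste and pheromone receptor genes, a set with little known use in lung, and lay between 5.32 and 5.60. Alveolar type 2 markers were above it for 11 of 11 measured genes, with Sftpc at 14.67 ± 0.053 (mean ± SD, n = 5). Ciliated markers were above it for 10 of 12 (83.3%), and the share over all genes was 75.6%. The median signals of these lists lay 8.67 and 2.90 log2 units above background, which describes these probes and ranks no transcripts. In this mixture, fewer cells of a type and less RNA per cell cannot be told apart.

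The stretches around the start sites of 4 of the 9 genes are shown. Hadhb was taken because it lies head to head with Hadha, and Acadm, Acadvl and Cpt1a because they hold the motif AGGTCA. RefSeq windows of 300 bases on GRCm38.p6, from 250 bases before each start site to 50 after it, were matched for 9 of 9 members. The start sites of Hadha and Hadhb lie 273 bases apart on opposite strands, so that 228 bases are common to both windows. The Hadhb window, on the plus strand, holds 4 matches to the GC box GGGCGG on either strand, in capitals:

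Hadhb chr5:30155003-30155302: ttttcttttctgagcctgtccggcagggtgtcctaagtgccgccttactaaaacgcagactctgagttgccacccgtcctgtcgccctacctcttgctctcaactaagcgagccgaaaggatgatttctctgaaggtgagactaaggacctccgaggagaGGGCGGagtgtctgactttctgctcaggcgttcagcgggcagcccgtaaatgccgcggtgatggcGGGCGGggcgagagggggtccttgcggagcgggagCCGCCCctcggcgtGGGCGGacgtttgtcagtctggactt

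AGGTCA, the core element bound by many nuclear receptors, was found on either strand in 3 of the 9 windows, against 16.3% of all 32851 windows of that length. Those of Acadm (minus strand), Acadvl (minus strand) and Cpt1a (plus strand) follow, each 5′ to 3′ on the gene's strand with the match in capitals:

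Acadm chr3:153944594-153944893: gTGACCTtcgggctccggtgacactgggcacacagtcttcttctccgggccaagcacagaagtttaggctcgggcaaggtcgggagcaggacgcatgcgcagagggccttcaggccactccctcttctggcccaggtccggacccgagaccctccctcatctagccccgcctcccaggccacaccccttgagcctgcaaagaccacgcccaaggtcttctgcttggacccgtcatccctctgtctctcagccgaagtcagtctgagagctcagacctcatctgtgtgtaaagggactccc
Acadvl chr11:70015379-70015678: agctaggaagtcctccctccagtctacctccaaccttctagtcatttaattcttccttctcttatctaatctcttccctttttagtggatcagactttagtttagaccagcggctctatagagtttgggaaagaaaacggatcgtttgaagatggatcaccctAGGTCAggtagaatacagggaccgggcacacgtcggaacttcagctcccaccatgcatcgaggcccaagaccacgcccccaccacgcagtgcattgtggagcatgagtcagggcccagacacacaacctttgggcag
Cpt1a chr19:3323051-3323350: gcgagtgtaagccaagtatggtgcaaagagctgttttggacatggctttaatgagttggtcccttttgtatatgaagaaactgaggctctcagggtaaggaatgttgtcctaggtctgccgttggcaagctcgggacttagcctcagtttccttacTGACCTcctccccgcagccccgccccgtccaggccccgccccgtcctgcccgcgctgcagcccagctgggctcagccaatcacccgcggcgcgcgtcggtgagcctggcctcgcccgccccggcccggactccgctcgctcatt

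The element DR1, the textbook site of the PPAR receptors and here an exact direct repeat of AGGTCA with 1 base between the copies, matched 0 of the 9 windows and 0.0396% of all windows, both strands searched; each such repeat also holds the shorter motif. GGGCGG matched 7 of the 9 windows against 35.7% of all, with Hadha and Hadhb sharing 1 match in their common bases. CCAAT, another common promoter box, matched 2 of the 9 against 37.4% of all. These counts describe letters in short windows only.

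All 9 enzymes gave a signal above background. A probe set was called when its value minus the array's background exceeded 0 in a one-sided test with limma, the threshold being an adjusted p of 0.05 (Benjamini-Hochberg, over 44950 probe sets); this held for 14 of the 15 member probe sets, against 65.8% of all. Represented by the probe set of highest mean, 9 of 9 genes were called, against 75.6% of all 18115 genes, and their median signal lay 5.70 log2 units above background, against 3.50 for all genes, which describes these probes and ranks no transcripts. The largest adjusted p among the 14 was 0.00412.

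**Figure D1:**
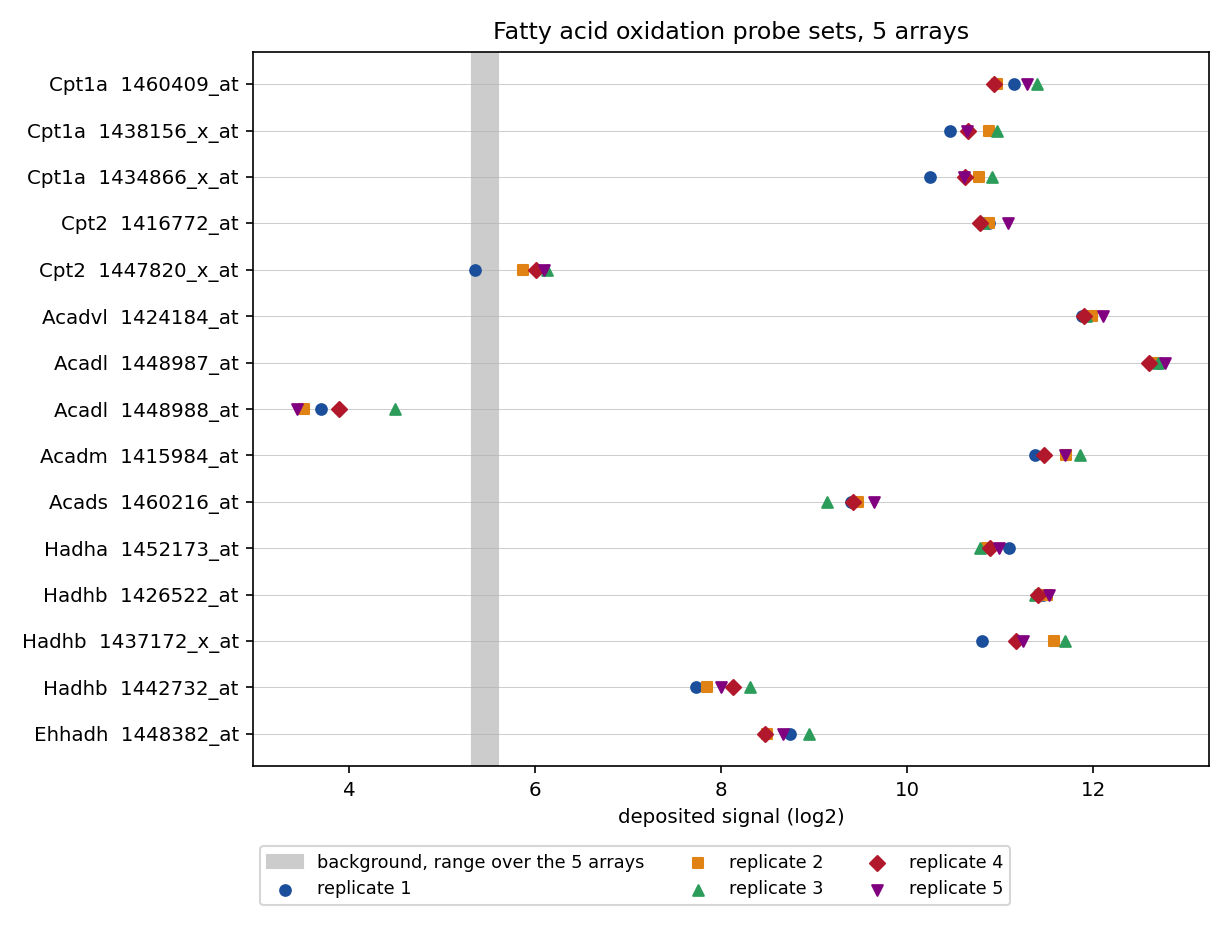
Deposited signal (log2, horizontal axis) of the 15 member probe sets on the 5 arrays, 1 symbol per replicate, with the range of the 5 array backgrounds in grey. Only Acadl 1448988_at lies below the grey band on every array, and Cpt2 1447820_x_at lies beside it; the other 13 lie to its right.

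In the carnitine shuttle, Cpt1a makes the rate-limiting step of entry. Its probe set 1460409_at read 11.15, 10.96, 11.39, 10.93 and 11.29 in replicates 1 to 5. Replicates 3 and 5 were high and replicates 2 and 4 low, a range of 1.38-fold, with a mean 5.70 ± 0.090 (SE) above background. The other Cpt1a probe sets, 1438156_x_at and 1434866_x_at, gave another order: 10.45, 10.88, 10.97, 10.65 and 10.64 for the first. The second read 10.24, 10.77, 10.91, 10.61 and 10.61. Both put replicate 1 lowest and replicate 3 highest, so that replicate 3 was highest in all 3 Cpt1a probe sets while the place of replicate 1 depended on the probe set.

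Cpt2 read 10.87, 10.87, 10.82, 10.78 and 11.08 at 1416772_at, with replicate 5 above the other 4 and a range of 1.23-fold. Its second probe set, 1447820_x_at, stood near the floor at 5.35, 5.87, 6.13, 6.01 and 6.09. Replicate 1 fell just under its array's background of 5.36 there and the other 4 over theirs, and the call (0.45 above background, limma adjusted p = 0.00412) was lost when the 99th percentile of the receptors or organ-restricted genes set the background (−0.48 and −1.67).

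The acyl-CoA dehydrogenases differ in the chain length they prefer, from very long (Acadvl) through long and medium (Acadl and Acadm) to short (Acads). Acadvl read 11.88, 11.99, 11.92, 11.90 and 12.10 in replicates 1 to 5, and Acadl 12.71, 12.65, 12.70, 12.60 and 12.77 at 1448987_at. Both were highest in replicate 5 and spanned 1.17-fold and 1.13-fold. Acadl's other probe set, 1448988_at, was the member probe set without a call, at 3.70, 3.51, 4.50, 3.89 and 3.44, below background on all 5 arrays (limma adjusted p = 1). The 2 probe sets of this gene therefore lay on opposite sides of background, by 7.25 and -1.64 on the log2 scale, and what sets them apart was not tested.

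Acadm, the medium-chain enzyme, read 11.38, 11.70, 11.85, 11.46 and 11.69. Replicates 1 and 4 were low and replicate 3 high, a range of 1.39-fold. Acads read 9.40, 9.47, 9.14, 9.42 and 9.64. Here replicate 3 was lowest and replicate 5 highest, with a range of 1.42-fold, the widest among the 9 representative probe sets. Acadm and Acads therefore stood at opposite ends in replicate 3, by 0.24 above and 0.28 below their own means.

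The trifunctional protein is an assembly of the Hadha and Hadhb products, which carry the hydratase and dehydrogenase activities and the thiolase activity. Hadha read 11.09, 10.86, 10.78, 10.89 and 10.98, with replicate 1 highest and replicate 3 lowest (1.24-fold). Hadhb read 11.46, 11.50, 11.38, 11.41 and 11.53 at 1426522_at, the narrowest range of the representatives at 1.11-fold. Both subunits were lowest in replicate 3 at these probe sets, as were 24.7% of all genes above background.

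Hadhb's other probe sets behaved differently. At 1437172_x_at the signal was 10.80, 11.58, 11.69, 11.17 and 11.24, a range of 1.86-fold, and at 1442732_at it was 7.73, 7.85, 8.30, 8.13 and 8.00. Both had replicate 1 lowest and replicate 3 highest, the array on which 1426522_at was lowest.

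Ehhadh, the peroxisomal bifunctional enzyme that combines hydratase and dehydrogenase steps, has 1 probe set. It read 8.74, 8.49, 8.94, 8.47 and 8.66, with replicate 3 highest and replicate 4 lowest, and 3.22 ± 0.11 (SE) above background.

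**Figure D2:**
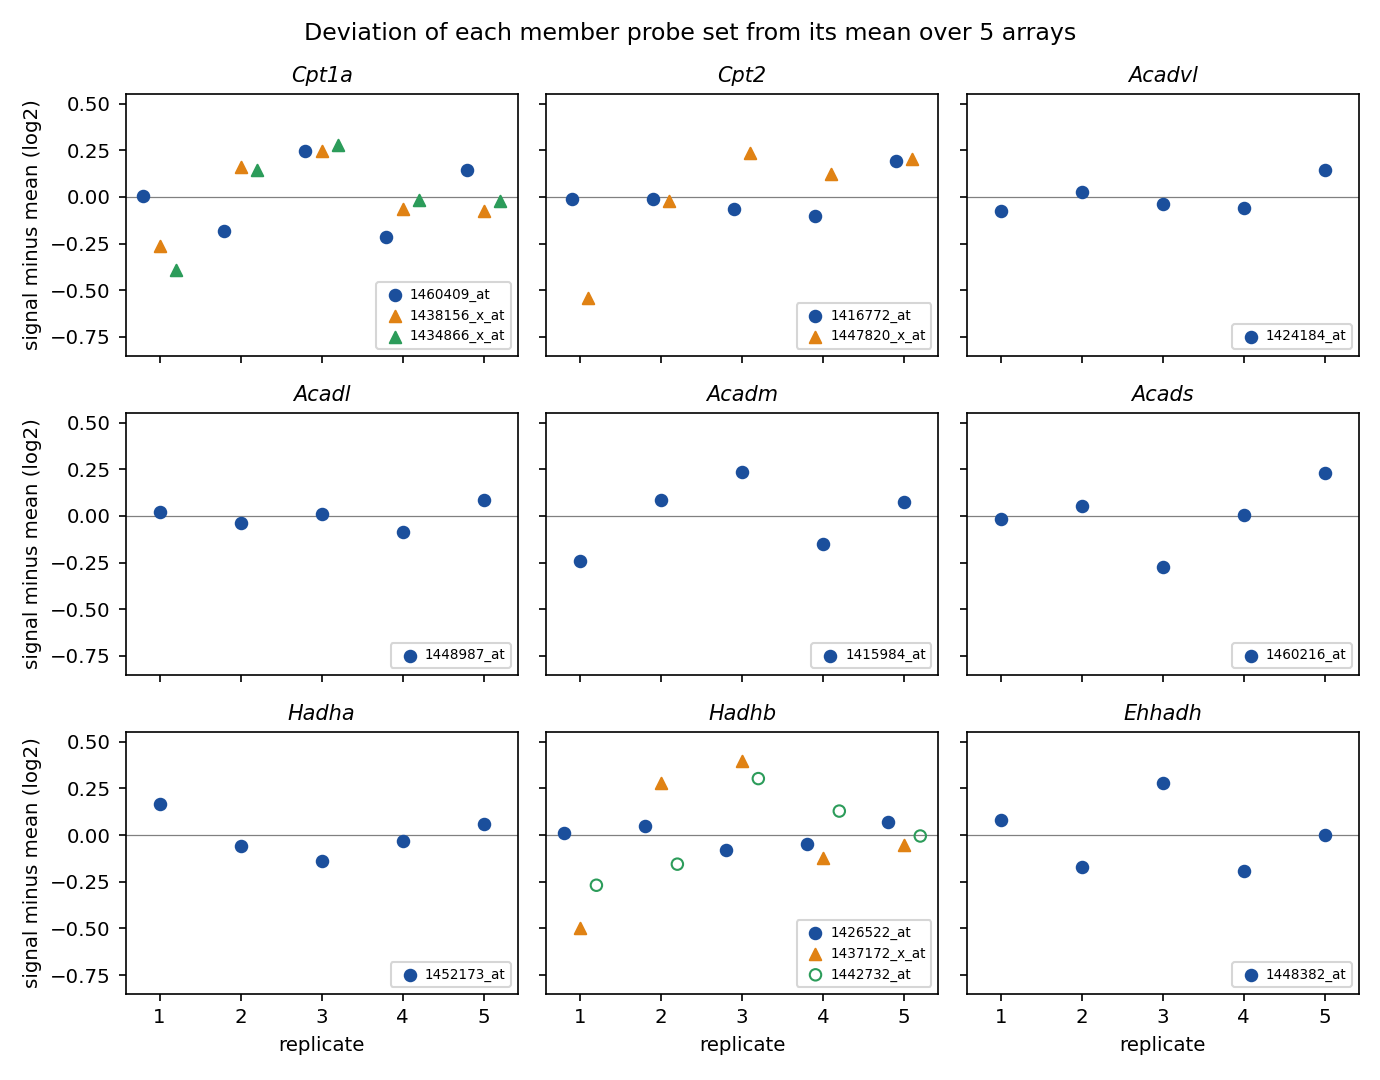
Deviation of the 14 probe sets above background from their own mean over the arrays (log2, vertical axis) by replicate (horizontal axis), 1 panel per gene; triangles are probe sets of the _x_at type and circles the others. In the Cpt1a, Cpt2 and Hadhb panels the triangles lie lowest in replicate 1, at −0.26 to −0.54. The filled circles, the representative probe sets, lie at −0.01 to 0.01 there, and the open circle, Hadhb 1442732_at, is also lowest there, at −0.27.

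The spread between replicates depended on the probe sets taken. The SD over the 5 arrays ran from 0.064 to 0.20 across the 9 representative probe sets, with a median of 0.12 against 0.15 for all genes above background. Over all 14 member probe sets above background the median SD was 0.19, against 0.18 for all probe sets. For spread, each probe set's variance between arrays was set against the one limma fits at its signal, by a one-sided F test (4 and 4.30 degrees of freedom). After Benjamini-Hochberg adjustment 0 of the 14 member probe sets passed in limma's fit, the smallest adjusted p being 0.890, and 0 of all 29597 (0%), so the test sets the members apart from no other probe set and does not show that they were stable. At an unadjusted p under 0.05 there were 1 of 14, Hadhb 1437172_x_at (limma adjusted p = 0.890), against 5.40% of all. Without replicate 1 there were 0 of 14, and its SD was 0.25 in place of 0.35.

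The array at the extreme differed with the probe set counted. Over representative probe sets, replicate 5 was highest in 5 of 9 enzymes (Cpt2, Acadvl, Acadl, Acads and Hadhb), against 21.2% of all genes above background, and replicate 3 in Cpt1a, Acadm and Ehhadh, 3 of 9 against 26.6%. Replicate 4 was lowest in 4 of 9 (Cpt1a, Cpt2, Acadl and Ehhadh) against 18.0%, and replicate 3 in 3 of 9 (Acads, Hadha and Hadhb) against 24.7%. Over all 14 probe sets, replicate 3 was highest in 8, against 28.0% of all probe sets, and replicate 1 lowest in 7, against 23.4%. Probe sets of 1 gene share their transcript and are not separate observations.

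Of the 7 member probe sets lowest in replicate 1, 4 were of the _x_at type, whose probes can bind related transcripts. The others were plain _at probe sets of Acadvl, Acadm and Hadhb. All 4 _x_at probe sets of the members were lowest in replicate 1. The same held for 34.5% of the 1699 _x_at probe sets above background and for 22.7% of 22299 plain _at probe sets. Within a gene, Hadhb 1437172_x_at less 1426522_at ranged over 0.98 log2 units between arrays, and the other member pairs with a representative probe set over 0.61 to 0.83. The median range over 11517 such pairs on the arrays was 0.47. The Cpt1a probe sets 1438156_x_at and 1434866_x_at, set against each other, ranged over 0.18. Replicate 1 also had the highest bacterial hybridisation controls (12.40 against 11.48 to 11.61), and replicate 3 the largest 3′ to 5′ difference of the Gapdh and Actb controls (1.67 against 1.27 to 1.60, and 0.84 against 0.54 to 0.60). Their part in these differences was not tested.

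Averaged over the 9 enzymes, the replicates lay close together. The replicate score centres each gene on its mean, averages the enzymes on an array and subtracts the median over all genes above background; it is given without a test. Scores of 0.00, −0.02, 0.02, −0.08 and 0.10 were found for replicates 1 to 5, which spans 1.13-fold. With the median over a gene's probe sets in place of the highest, replicate 1 had −0.12 and replicate 3 had 0.11. The order of the arrays therefore rested on which probe sets were used. That median also takes in Acadl 1448988_at, below background, which deviated by 0.69 from its mean in replicate 3. It takes in Cpt2 1447820_x_at, near the floor, which deviated by −0.54 in replicate 1.

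**Figure D3:**
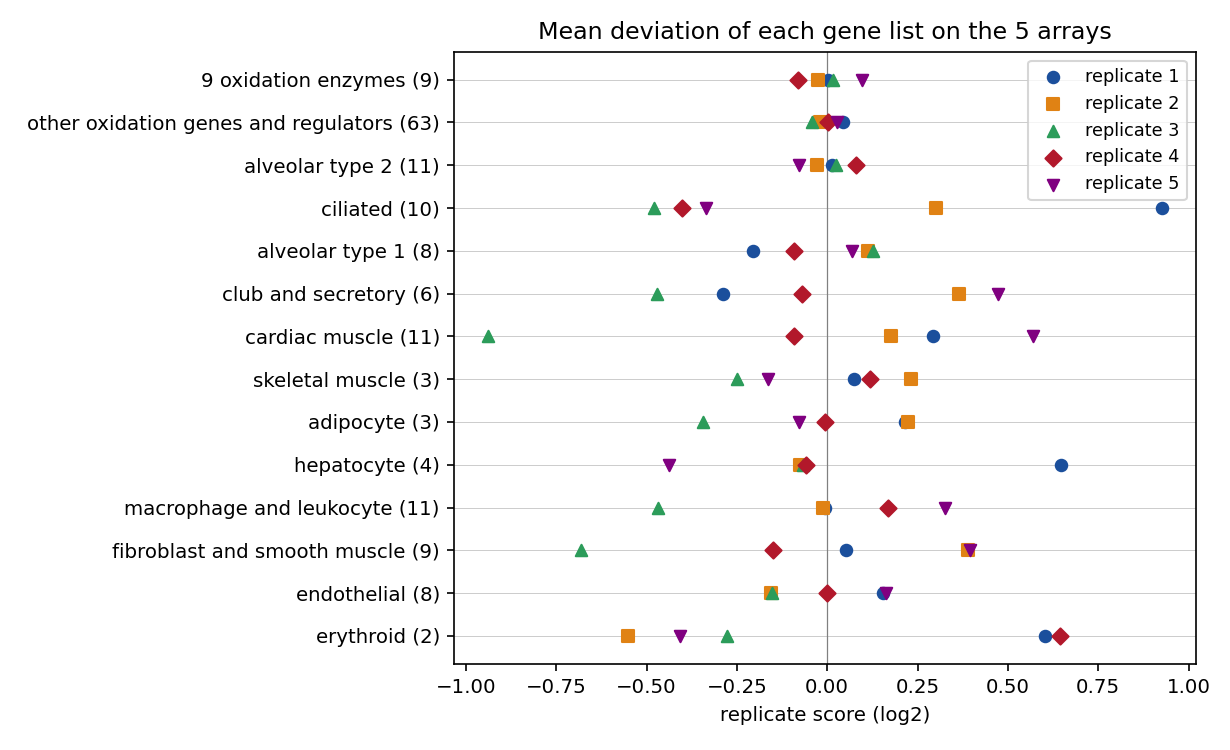
Replicate score (log2, horizontal axis) of the 9 enzymes, the other oxidation genes and marker lists of cell types, 1 symbol per replicate. The number of genes above background is in brackets. The enzymes span 0.18 log2 units, the other oxidation genes 0.086 and the alveolar type 2 markers 0.16. The widest lists are cardiac muscle at 1.51 and ciliated at 1.41.

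Markers of other cells that oxidise fatty acids were measured too, to be read against the 75.6% of all genes above background. Cardiac muscle genes were above it for 11 of 12 (91.7%), all but Pln, with Myh6 at 8.11 ± 0.34 and Tnnt2 at 7.26 ± 1.41, and their scores were 0.29, 0.18, −0.94, −0.09 and 0.57. That list and the enzymes were both highest in replicate 5, and in replicate 3, where the cardiac list was lowest, the enzymes stood at 0.02. Leukocyte scores were likewise lowest in replicate 3 (−0.47) and highest in replicate 5 (0.33), and fibroblast scores too (−0.68 and 0.40). Alveolar type 2 markers scored 0.01, −0.03, 0.03, 0.08 and −0.08. They were highest in replicate 4, where the enzymes were lowest, and lowest in replicate 5, where the enzymes were highest. These places of the enzymes hold for the probe sets of highest mean only. With the median probe set, the enzymes were lowest in replicate 1 (−0.12) and highest in replicate 3 (0.11). Replicates 4 and 5 then had −0.04 and 0.04. Of 6 adipocyte genes 3 were above background (Cidea, Retn and Cidec), with Cidea at 5.79 ± 0.24, and 3 were not (Adipoq, Ucp1 and Lep), with the hormone gene Adipoq at 3.76 ± 0.20. Hepatocyte genes were above it for 4 of 7 (57.1%). How much these other cells contributed to the enzymes' signals was not tested.

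Of 76 further genes of fatty acid oxidation and its control, 69 were measured and 63 (91.3%) were above background, against 75.6% of all genes. Those not above it were Acsl6, Slc22a4, Bbox1, Bdh1, Fgf21 and Cyp4a14. The counts of the separate lists below are to be read against the same 75.6%. The remaining genes of these lists were not analysed here. No spread test was passed by these 63 either (0 of 63, limma's fit, adjusted; 5 of 63 at an unadjusted p under 0.05 against 6.72% of genes).

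Upstream of the shuttle, fatty acids are activated by acyl-CoA synthetases, of which 5 of 6 were above background. Acsl3 was measured at 10.69 ± 0.12, Acsl4 at 13.00 ± 0.092 and Acsl5 at 13.49 ± 0.033. Acsl6, known from brain, lay below background at 4.56 ± 0.15.

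The rest of the carnitine system counted 6 of 8 (75%), near the 75.6% of all genes. The mitochondrial carnitine carrier Slc25a20 had 12.95 ± 0.094, the plasma membrane carnitine transporter Slc22a5 9.49 ± 0.16 and Cpt1c, the brain form of the first enzyme, 8.06 ± 0.32. Slc22a4 (5.03 ± 0.19) and Bbox1 (5.42 ± 0.54), which makes the last step of carnitine synthesis, were not called.

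Every measured gene of the remaining mitochondrial steps was above background, 12 of 12, with a median SD of 0.085. The short-chain hydratase Echs1 had 11.71 ± 0.069, the hydroxyacyl-CoA dehydrogenase Hadh 13.82 ± 0.043 and the thiolase Acaa2 13.01 ± 0.083. The electron transfer proteins that take electrons from the acyl-CoA dehydrogenases were 3 of 3, with Etfa at 12.66 ± 0.031, Etfb at 13.41 ± 0.10 and Etfdh at 11.04 ± 0.097. Scores of these lists spanned 1.04-fold and 1.03-fold.

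Peroxisomal genes beside Ehhadh were above background in 12 of 12. The acyl-CoA oxidases Acox2 and Acox3 had 7.31 ± 0.22 and 7.35 ± 0.17, and the multifunctional enzyme Hsd17b4 11.49 ± 0.080. The thiolase gene Acaa1b, chosen after its values were seen, read 10.73, 9.89, 9.58, 10.24 and 10.23, a range of 2.21-fold. Its near-identical paralog Acaa1a was lowest in replicate 1, where Acaa1b was highest, and the 2 may share hybridisation. With organ-restricted genes as background, 53 of the 69 further genes were called. The share of all genes under that background is not given here. Of all probe sets 42.4% were called, which is not a like measure, since the main background gave 65.8% of probe sets but 75.6% of genes.

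Among ketone body and acetate enzymes, Oxct1, which serves the use of ketones, had 12.27 ± 0.12 and the mitochondrial acetyl-CoA synthetase Acss1 12.82 ± 0.079. Bdh1, the hydroxybutyrate dehydrogenase, was not called (5.25 ± 0.43).

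Regulators of the pathway were above background in 14 of 14. The PPAR receptor genes Ppara, Ppard and Pparg had 7.10 ± 0.11, 8.39 ± 0.22 and 9.10 ± 0.21. With organ-restricted genes as background (7.22 to 8.09), Ppara lay below it on every array, and Ppard and Pparg lay above it. Acacb, the mitochondrial acetyl-CoA carboxylase whose product malonyl-CoA inhibits the enzyme of Cpt1a, was chosen after its values were seen. It read 8.997, 7.52, 7.00, 8.88 and 7.27, high in replicates 1 and 4 and low in the other 3, a range of 3.99-fold (limma adjusted p = 0.840 for its spread). Its other probe set, 1445754_at, was at background (5.43 ± 0.046), so the range rests on a single probe set.

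Genes that PPAR receptors are known to drive outside the pathway were above background in 9 of 11. The kinase gene Pdk4, which spares glucose, had 11.21 ± 0.094, and Angptl4, an inhibitor of lipoprotein lipase, read 10.72, 11.32, 10.73, 10.22 and 11.49. Replicates 2 and 5 were high for Angptl4 (2.40-fold range, limma adjusted p = 0.840 for its spread). Fgf21 (4.78 ± 0.12) and Cyp4a14 (3.26 ± 0.077), best known from liver, lay below background.

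**Figure D4:**
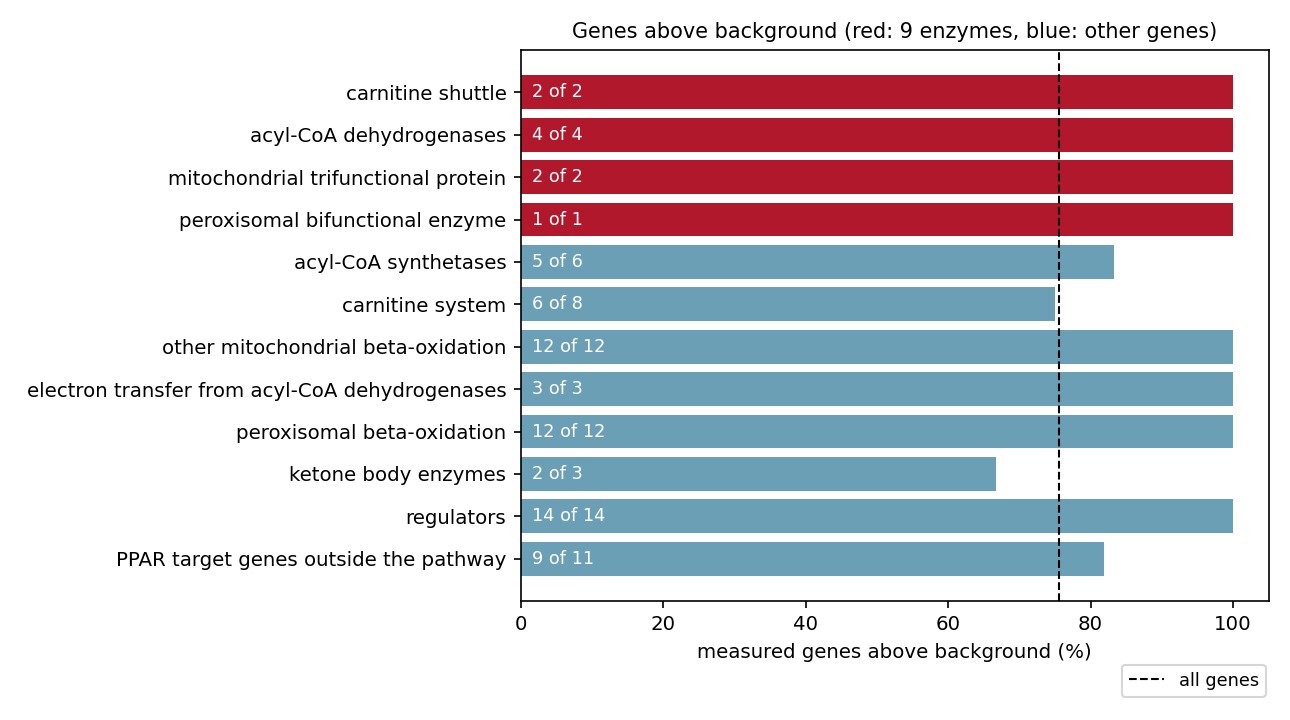
Share of measured genes above background (%, horizontal axis) in the 4 role groups of the 9 enzymes (red) and 8 lists of other genes (blue), with counts in the bars; the dashed line is the share of all genes, 75.6%. The mitochondrial, electron transfer, peroxisomal and regulator lists reach their full count, and the ketone body list is lowest at 2 of 3.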

How the data were processed

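Amplification and biotin labelling used NuGEN Ovation kits, followed by Affymetrix arrays, per the labels' protocols. The authors deposited 1 value per probe set and array, taken as log2 from its range (2.46 to 15.24); the sources used here do not give its summarisation, background correction or normalization. Array medians were 7.12 to 7.19, so values were used as deposited. Names came from a platform annotation of 2016: 34958 probe sets had 1 symbol, 932 several and 9211 none.

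limma 3.58.1 in R 4.3.3 (eBayes, trend = TRUE, and robust = TRUE for the spread test) was run on all probe sets except 64 control and 87 receptor ones. The code was also run on simulated data, where the planted spreads were wider than those of the members. Those runs do not show whether the test could find a spread as small as the members'. The p-values cover only the spread between these 5 samples, which may be technical, and the number of arrays limits precision. The probe set of highest mean stood for a gene, which favours probe sets with signal. Members and lists were chosen with earlier results of these data known. Named genes are all members, the first 3 of each pathway list, those on the minority side of a background call, Cpt1c, and the first 2 measured of each marker list; not all are printed. Alternatives were other backgrounds, normalizations, probe set choices and variance models, and each replicate left out.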

Additional observations from a re-analysis of the deposited data

Results flagged for a closer look

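Of 69 probe sets of the members and the genes chosen by the naming rule, 4 had an array that stood apart by Dixon's criterion for 5 samples, which chance meets in about 1 of 20 groups; none of the 15 member probe sets was among them. Etfdh, the last carrier between the acyl-CoA dehydrogenases and the respiratory chain, was higher in replicate 3, at 11.21 against 10.96 to 11.02. Acox3 was higher in replicate 5, at 7.66 against 7.25 to 7.30, and its second probe set, 1420684_at, was highest in replicate 4 at 6.36. Acss1 was higher in replicate 4, at 12.95 against 12.75 to 12.81. The skeletal muscle gene Myh1, below background on all 5 arrays, was higher in replicate 4, at 4.85 against 3.52 to 3.87.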

How the results depend on the processing

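The 9 enzymes were above background under every alternative run, with 13 or 14 of 15 probe sets called, or 10 of the 11 left without types that can cross-hybridise. The exception was Cpt2 1447820_x_at, at −0.48 with the 99th percentile of the receptors and −1.67 with organ-restricted genes. With the latter, 19092 of all probe sets (42.4%) were called in place of 29597. Leaving out a replicate gave 0 to 4 of all probe sets past the spread threshold and 0 to 1 member at an unadjusted p under 0.05; the 4 and the 0 came without replicate 1. The members' score with the median probe set was −0.12 in replicate 1 and 0.11 in replicate 3, against 0.00 and 0.02; the cause was not tested. Calls of the other member probe sets did not change. No paired analysis was possible because there is 1 group. Signal near the floor limits Cpt2 1447820_x_at and Acadl 1448988_at, which both enter the score with the median probe set.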
